A study of Homo sapiens with 4 samples.

Results

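Of 4953 stretches of chromatin that carried peaks of both ETS1 and RUNX1 in the T-ALL (T-cell acute lymphoblastic leukaemia) line 6T-CEM, 1309 lay inside protein-coding genes, away from the gene ends. These intragenic regions are described here. They were chosen by the presence of peaks. For each factor, touching peaks of both libraries were merged, and a merged region was kept only where each library contributed a peak. An ETS1 region was then taken if it overlapped a RUNX1 region by at least 1 bp and if its midpoint lay inside a protein-coding gene and more than 1000 bp from every end of such a gene. Of the remaining ETS1-RUNX1 regions, 2874 had their midpoint within 1000 bp of a gene end and 770 lay outside genes. In all there were 5055 ETS1 and 22802 RUNX1 regions that were found in both libraries of the factor. The 4953 are thus nearly all of the ETS1 regions, so the overlap with RUNX1 left out few.

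The data are 4 CUT&Tag libraries, 2 made with an antibody to ETS1 (Santa Cruz sc-55581) and 2 with an antibody to RUNX1 (Abcam ab272456). CUT&Tag uses an antibody to bring a transposase to chromatin, which tags the DNA near the bound protein for sequencing. The labels name no treatment, genetic change or time point for the cells, and all 4 libraries share the line and the kit. They do not say whether libraries of 1 antibody came from separate cultures, so spreads and p-values measure the difference between these libraries, which may be technical. Peaks had been called in each library against IgG, the control antibody, which gave 6070 and 5611 ETS1 peaks and 25356 and 24997 RUNX1 peaks on chromosomes 1 to 22 and X. The strength of a peak is its fold enrichment over IgG at the summit, as the authors' lists give it. Where a region spans several peaks of a library, the strongest gives its fold. The pileup, which is the number of reads or fragments stacked at the summit, was solved from the deposited values and had medians of 54, 51, 75 and 71 over all peaks of the 4 libraries.

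ETS1 and RUNX1 are transcription factors of the T-cell lineage. ETS1 binds DNA through its ETS domain at sites with a GGAA core, and the sequence CCGGAAG is a strong form that is common at promoters. RUNX1 binds, with its partner CBFB, at sites around TGTGGT. On its own, ETS1 holds back its DNA binding through a stretch next to the ETS domain, and contact with RUNX1 at composite sites relieves that hold. Sites inside genes can be enhancers, and they can also be promoters of shorter transcripts that start within the gene.

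Some members hold the start of a transcript inside the gene, and the 250 bases before such starts are shown for 7 of them. In each, capitals mark every match to the ETS core GGAAG or its longer form CCGGAAG, and to the RUNX core TGTGGT, on either strand. Sequences run 5′ to 3′ towards the transcript start, on the strand of the transcript, and come from RefSeq (GRCh38.p14). The members were picked after their values were seen. ATG101, which encodes a part of the autophagy initiation complex, had the highest ETS1 fold of 81 members whose ETS1 summits both lay in the 250 bases before a start of their own gene. Of those 81, 11 held CCGGAAG, and the strongest 3 were at APEH (a peptide hydrolase), UVSSA (transcription-coupled DNA repair) and MVB12A (an ESCRT-I subunit). UVSSA was also the single member of the 11 with TGTGGT. The starts inside RUNX1, inside the T-cell kinase gene LCK and at the lncRNA LOC105375059 within the cyclin D3 gene CCND3 are shown because these loci are described further on. The windows lie at chr12:52069728-52069977 (+ strand) for ATG101, chr3:49674101-49674350 (+ strand) for APEH, chr4:1346958-1347207 (+ strand) for UVSSA, chr19:17419797-17420046 (+ strand) for MVB12A, chr21:34888700-34888949 (- strand) for RUNX1, chr1:32273871-32274120 (+ strand) for LCK and chr6:42010463-42010712 (+ strand) for LOC105375059.
ATG101: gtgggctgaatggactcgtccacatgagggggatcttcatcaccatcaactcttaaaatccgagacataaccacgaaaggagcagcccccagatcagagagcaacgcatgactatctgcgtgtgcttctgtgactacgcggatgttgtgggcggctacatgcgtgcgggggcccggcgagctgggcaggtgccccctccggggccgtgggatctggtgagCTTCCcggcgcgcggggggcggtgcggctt
APEH: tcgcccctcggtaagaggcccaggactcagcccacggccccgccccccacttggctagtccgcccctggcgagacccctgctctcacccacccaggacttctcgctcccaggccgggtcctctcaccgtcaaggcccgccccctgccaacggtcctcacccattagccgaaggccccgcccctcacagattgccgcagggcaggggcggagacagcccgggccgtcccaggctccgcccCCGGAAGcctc
UVSSA: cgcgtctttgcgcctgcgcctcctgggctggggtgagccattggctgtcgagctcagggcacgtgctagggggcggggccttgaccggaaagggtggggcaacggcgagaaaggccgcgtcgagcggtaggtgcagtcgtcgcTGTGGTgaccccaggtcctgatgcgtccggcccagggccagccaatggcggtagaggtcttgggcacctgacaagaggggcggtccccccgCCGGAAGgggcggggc
MVB12A: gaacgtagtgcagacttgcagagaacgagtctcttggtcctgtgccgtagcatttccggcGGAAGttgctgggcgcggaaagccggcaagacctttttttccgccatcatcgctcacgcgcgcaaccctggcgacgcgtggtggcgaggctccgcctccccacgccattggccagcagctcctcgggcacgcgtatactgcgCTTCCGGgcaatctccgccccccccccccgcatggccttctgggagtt
RUNX1: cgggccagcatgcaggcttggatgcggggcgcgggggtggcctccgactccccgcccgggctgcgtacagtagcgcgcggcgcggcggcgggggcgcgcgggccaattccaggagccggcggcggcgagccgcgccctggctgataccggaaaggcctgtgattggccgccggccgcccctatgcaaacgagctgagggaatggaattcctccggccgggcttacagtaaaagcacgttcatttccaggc
LCK: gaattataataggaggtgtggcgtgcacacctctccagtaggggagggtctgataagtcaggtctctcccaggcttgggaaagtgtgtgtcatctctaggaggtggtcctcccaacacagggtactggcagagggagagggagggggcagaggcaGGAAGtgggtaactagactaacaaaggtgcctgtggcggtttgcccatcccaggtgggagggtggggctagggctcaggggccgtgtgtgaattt
LOC105375059: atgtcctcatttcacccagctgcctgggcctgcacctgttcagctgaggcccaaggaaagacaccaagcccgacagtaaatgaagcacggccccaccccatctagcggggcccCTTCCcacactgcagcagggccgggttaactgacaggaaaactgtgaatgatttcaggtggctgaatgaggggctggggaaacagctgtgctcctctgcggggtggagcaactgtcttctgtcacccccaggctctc

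In the APEH window CCGGAAG began 11 bases before the start, in UVSSA 16 and in MVB12A, on the other strand, 48. The RUNX1 window held no match to any of the 3 cores. At ATG101 the ETS1 fold was 18.2 and 18.6 in libraries 1 and 2 and the RUNX1 fold 17.7 and 16.7, so the folds of both factors were about level there. At MVB12A the folds were also close, 6.05 and 5.67 for ETS1 against 6.76 and 6.58 for RUNX1. APEH and UVSSA had higher RUNX1 than ETS1 folds. Folds of different antibodies are not amounts of the factors. Their ETS1 folds were 7.72 and 7.90 at APEH and 6.85 and 7.13 at UVSSA, and their RUNX1 folds 11.9 and 12.99 at APEH and 17.8 and 17.3 at UVSSA.

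The members lay well inside genes but not deep within them. From a member's midpoint to the nearest protein-coding gene end, the median distance was 7703 bp, with quartiles of 2632 and 21688 bp. Within 5 kb of an end lay 507 members (38.7%), and more than 50 kb away lay 132 (10.1%). The farthest was in NBAS, a gene of Golgi-to-endoplasmic-reticulum transport, 363553 bp from an end, with an ETS1 fold of 16.7 and 15.3 and a RUNX1 fold of 32.1 and 31.0. Members had a median width of 684 bp, and 23 of them lay in 2 overlapping genes.

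The limit of 1000 bp runs through a continuous range of positions. Just inside it were the regions in CD58 (1001 bp), the gene of the CD2 ligand, with ETS1 folds of 6.73 and 8.67 and RUNX1 folds of 34.0 and 33.7, and in STT3A (1012 bp), the gene of an oligosaccharyltransferase subunit, with 3.33 and 4.15 for ETS1 and 5.86 and 6.81 for RUNX1. Just outside it were regions in MCRIP1 (999 bp; ETS1 3.72 and 3.50, RUNX1 11.4 and 10.8) and in LEF1 (997 bp; ETS1 7.01 and 8.65, RUNX1 73.2 and 73.3), which encodes a nuclear partner of beta-catenin.

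A small part of all genes held a member. Of 18609 protein-coding genes over 2000 bp long, the only ones that can hold a member, 1039 did (5.58%). Of these, 853 held a single member, 122 held 2, 44 held 3 and 20 held 4 or more. Genes with a member had a median length of 43586 bp, against 26720 bp for the rest. The share of genes with a member was 2.34% in the shortest of 5 equal length classes and then 4.78%, 5.75%, 7.09% and 7.95%. Genes with a member also more often had an ETS1-RUNX1 region at an end (357, or 34.4%) than genes without (3025 of 17570, or 17.2%). Within a gene, neighbouring members lay a median of 6359 bp apart (293 gaps).

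RUNX1 regions were called inside far more genes than members were. The RUNX1 lists were also longer, with 25356 and 24997 peaks against 6070 and 5611 for ETS1. Antibodies differ and depth is unknown, so these counts do not compare the factors themselves. A RUNX1 region lay inside 4343 of the genes (23.3%), and of those genes 981 (22.6%) held a member. Of 8839 RUNX1 regions inside genes, 1181 overlapped an ETS1 region (13.4%), against 20.6% of RUNX1 regions at all positions. The overlap with ETS1 followed the strength of RUNX1. With chromosome 8 left out, it was 1.22% in the lowest of 4 equal groups by RUNX1 fold and then 4.59%, 11.98% and 36.1%. By chromosome, members were most frequent on chromosome 19 (206, or 15.7%), where 7.26% of the intragenic RUNX1 regions without ETS1 lay. ETS1-RUNX1 regions at gene ends had nearly the same share there (14.7%), and those outside genes 8.83%. Chromosomes 17 and 1 followed with 145 and 129 members (11.1% and 9.85%), against 11.7% and 11.8% of the regions outside genes.

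The strongest ETS1 members lay in genes of varied function. SMG6, the endonuclease of nonsense-mediated mRNA decay, came first with an ETS1 fold of 29.6 and 25.9 and a RUNX1 fold of 68.8 and 82.0 (chr17:2215652-2216059). VAV1, a guanine nucleotide exchange factor that acts directly below the T-cell receptor, followed with 25.7 and 23.9 for ETS1 and 112.9 and 108.3 for RUNX1 (chr19:6800983-6802744). ARHGEF2, a microtubule-bound guanine nucleotide exchange factor, had 21.7 and 23.2 for ETS1 and 152.4 and 156.8 for RUNX1 (chr1:155975461-155977259). At each of these 3 members the libraries of an antibody lay close together. Both RUNX1 values were above both ETS1 values, as is common, since ETS1 had the higher mean fold at only 35 of 1309 members (2.67%).

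The next were PELI2, a Pellino ubiquitin ligase (ETS1 21.97 ± 0.894, RUNX1 26.8 ± 4.05, SD, n = 2 here and below), CELF5, an RNA-binding protein (21.9 ± 1.04 and 56.9 ± 8.10), and STMN3, a stathmin (21.4 ± 0.258 and 42.3 ± 3.79). CCND3 (21.4 ± 1.59 and 80.1 ± 1.75) and the Mediator subunit gene MED16 (21.0 ± 0.724 and 35.6 ± 6.94) closed the 10 strongest. The other 2 of the 10 were neighbouring regions in the uncharacterised gene LOC107985915 (chr2:94210904-94215834 and chr2:94216304-94218028). Their ETS1 fold was 22.5 ± 0.519 and 22.5 ± 1.09 and their RUNX1 fold 14.9 ± 1.99 and 12.7 ± 1.003. This locus is close to the centromere, and whether reads from repeated sequence were filtered is not given in the sources used here. By the smaller of a member's ETS1 and RUNX1 folds, the first 5 were SMG6, VAV1, ARHGEF2, PELI2 and CELF5.

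**Figure D1:**
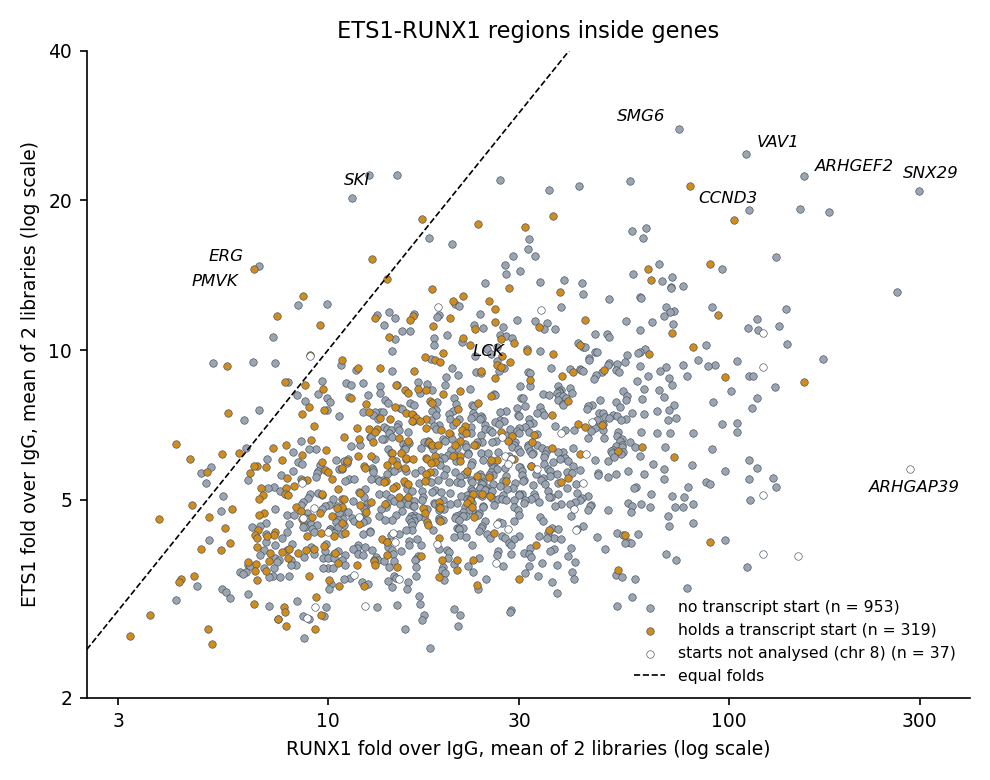
Each point is a member, with its RUNX1 fold over IgG on the x axis and its ETS1 fold on the y axis (means of 2 libraries, log scales), coloured by whether it holds a transcript start. Most points lie below the line of equal folds, and the 35 above it include PMVK, ERG and SKI.

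RUNX1 reached far higher folds than ETS1 at the same places. The highest was in SNX29, a sorting nexin gene (chr16:12322735-12323285), with 293.3 and 305.9, where ETS1 had 24.4 and 17.4. ARHGAP39, a GTPase-activating protein, had 302.5 and 266.1 for RUNX1 and only 5.86 and 5.66 for ETS1 (chr8:144687042-144687815). ATP11A, a phospholipid flippase, had 253.3 and 274.7 for RUNX1 and 14.1 and 12.1 for ETS1. At these 3 members the ETS1 folds ran from near the median of all members to near their top, and among the next 7 by RUNX1 fold the lowest was 3.87.

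The rest of the strongest RUNX1 members were in PCBP3 (177.9 ± 26.0), BAHCC1 (171.9 ± 9.17), ARHGEF2 (2 members on the same RUNX1 region), RSPH14 (151.0 ± 5.07), ARHGAP39 again (149.0 ± 3.06) and DGCR8 (139.6 ± 1.62), which encodes the partner of the nuclease DROSHA in microRNA processing. Their ETS1 folds were 18.9 ± 1.32 in PCBP3, 9.60 ± 0.267 in BAHCC1, 19.2 ± 1.57 in RSPH14, 3.87 ± 0.298 in ARHGAP39 and 10.3 ± 0.914 in DGCR8. RUNX1 folds belong to whole RUNX1 regions, which are wide. The 1309 members lie on 1229 RUNX1 regions, and 142 members share 62 of them, so a RUNX1 summit can be away from the ETS1 summit.

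The ratio of ETS1 to RUNX1 fold varied widely among members. Its median was 0.288, and it ran from 0.0203 in ARHGAP39 to 2.22 in PMVK. ETS1 had the higher fold at 35 members (2.67%). PMVK, the phosphomevalonate kinase of the mevalonate pathway, had 14.5 and 14.6 for ETS1 and 6.36 and 6.72 for RUNX1. ERG, itself an ETS-family gene, followed with 16.2 and 13.4 against 7.06 and 6.38 (chr21:38476168-38476594). Both members were picked for this ratio, so ETS1 values that lie above the RUNX1 values follow from the choice and are no separate result.

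The zinc-finger gene ZNF610 (9.43 ± 0.823 against 5.18 ± 0.0213), LOC107985915 and SKI, a SMAD corepressor gene (20.2 ± 1.28 against 11.5 ± 1.14), completed the 5 highest ratios. At SKI the pileup was 188 and 190 for ETS1 and 120 and 132 for RUNX1, so ETS1 was ahead in stacked reads as well. At ERG the pileup was 40 and 31 for ETS1 and 45 and 43 for RUNX1, so there ETS1 was not ahead in stacked reads, which are not scaled for depth.

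Members had nearly the same median ETS1 fold as gene-end regions, and a higher median RUNX1 fold. The median ETS1 fold of members was 5.77 and 5.74 in libraries 1 and 2, against 5.81 and 5.81 at gene ends. The median RUNX1 fold was 20.8 and 20.8 in members, against 12.9 and 12.5 at gene ends. On the log2 scale, the median inside genes minus that at gene ends was -0.01 and -0.02 for ETS1 and 0.69 and 0.74 for RUNX1. The difference between the antibodies, -0.73, was larger than the spread between libraries (SD 0.00493 and 0.0320). Its exact permutation p was 0.333 (two-sided, 2 against 2 libraries), which is the smallest this design can give, so no comparison of the antibodies here can pass 0.05. With a reciprocal overlap of 50% the difference was -0.41, and ETS1 was then higher inside genes by 0.05 in each library. With only peaks at −log10 q of 20 or more, the ETS1 value was -0.012 in library 1 and 0.0063 in library 2.

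The difference between antibodies had the same direction in the pileup, though ETS1, which was level in fold, was lower inside genes in pileup. The pileup was solved from the deposited folds and −log10 p, so it is no separate measurement. The median pileup was 54 and 50 for ETS1 inside genes and 64 and 58 at gene ends. For RUNX1 it was 240 and 225 inside genes and 161 and 150 at gene ends. Inside genes RUNX1 summits were therefore higher, and ETS1 summits lower, than at gene ends. The median IgG expectation plus 1 was lower inside genes by nearly the same amount at the peaks of both antibodies (log2 difference -0.16 and -0.16 for ETS1, -0.17 and -0.16 for RUNX1). Its part in the folds was not tested. ETS1-RUNX1 regions outside genes resembled the members, with median folds of 5.98 and 5.95 for ETS1 and 20.6 and 20.5 for RUNX1. The difference between antibodies in that comparison was -0.07 on the log2 scale (exact permutation p = 0.333).

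**Figure D2:**
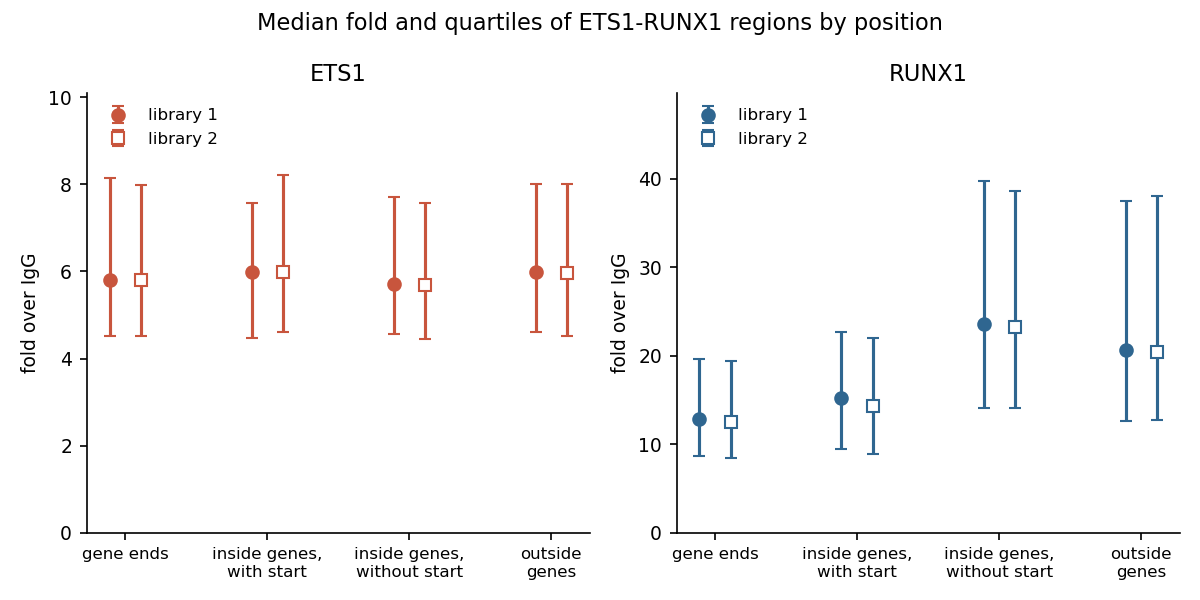
Median fold over IgG with quartiles (bars) of ETS1-RUNX1 regions by position, for ETS1 (left) and RUNX1 (right), with each library as a point. ETS1 medians stay between 5.68 and 5.98 at all positions, while RUNX1 medians run from 12.5 at gene ends to 23.6 in members without a transcript start.

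RUNX1 peaks at members were broad. The strongest peak of a member had a median width of 643 and 599 bp for ETS1 and 1872 and 1830 bp for RUNX1, a difference of -1230 bp (ETS1 minus RUNX1, exact permutation p = 0.333). Gene-end regions had RUNX1 peaks of 1303 and 1272 bp. The ETS1 summit lay a median of 68 bp from the nearest RUNX1 summit of the library with the same number, in both pairs, and within 100 bp in 60.05% and 60.3% of members. Between libraries of 1 antibody the median distance was 8 bp for ETS1 and 1 bp for RUNX1. At gene ends the ETS1 and RUNX1 summits were 57 and 59 bp apart. Across the 1309 members, the folds of ETS1 and RUNX1 had a Spearman's rho of 0.370 in each numbered pair, against 0.910 between the ETS1 libraries and 0.984 between the RUNX1 libraries. Members are not independent replicates, and those on the same RUNX1 region share its value.

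Many members lay at annotated starts of shorter transcripts. A RefSeq transcript start lay within 319 of the 1272 members off chromosome 8 (25.1%, 95% Wilson interval 22.8 to 27.5, counting error only). The 37 members on chromosome 8 were not analysed for starts. Over all intragenic RUNX1 regions the share was 13.3%. Of the 319 members, 313 held a start more than 1000 bp from every gene end. A start of a protein-coding gene was in 292 and a lncRNA start in 70, with 43 holding both kinds. The start nearest the ETS1 summit belonged to the gene around it in 272 members, to a lncRNA in 46 and to another coding gene in 1. Seen from the annotation, 8199 internal starts were listed, of which 1570 (19.1%) lay in a RUNX1 region and 413 (5.04%) in a member.

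Transcript starts were found far more often in intragenic RUNX1 regions with ETS1 than in those without. The shares were 35.4% (407 of 1151, interval 32.7 to 38.2) with ETS1 and 9.91% (733 of 7395, interval 9.25 to 10.6) without. Regions with ETS1 were wider, with a median of 1789 bp against 770 bp, and the part of width in this difference was not tested. ETS1 summits inside genes lay within 500 bp of a transcript start in 24.5% and 24.8% of cases, and RUNX1 summits in 10.8% and 10.6%. That difference of 13.9 percentage points is measured from summits rather than from region width, and its exact permutation p was 0.333. For comparison, 76.5% of ETS1-RUNX1 regions at gene ends and 10.9% of those outside genes held a listed start.

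The share with a start ran opposite to the strength of RUNX1 where ETS1 was present. From the lowest to the highest of 4 equal groups by RUNX1 fold, 73.1% (19 of 26), 54.1%, 41.4% and 29.7% of regions with ETS1 held a start. Without ETS1 the shares were 9.66%, 10.5%, 10.3% and 8.86%. The weakest RUNX1 regions that carried ETS1 were thus mostly annotated starts, although they were few.

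**Figure D3:**
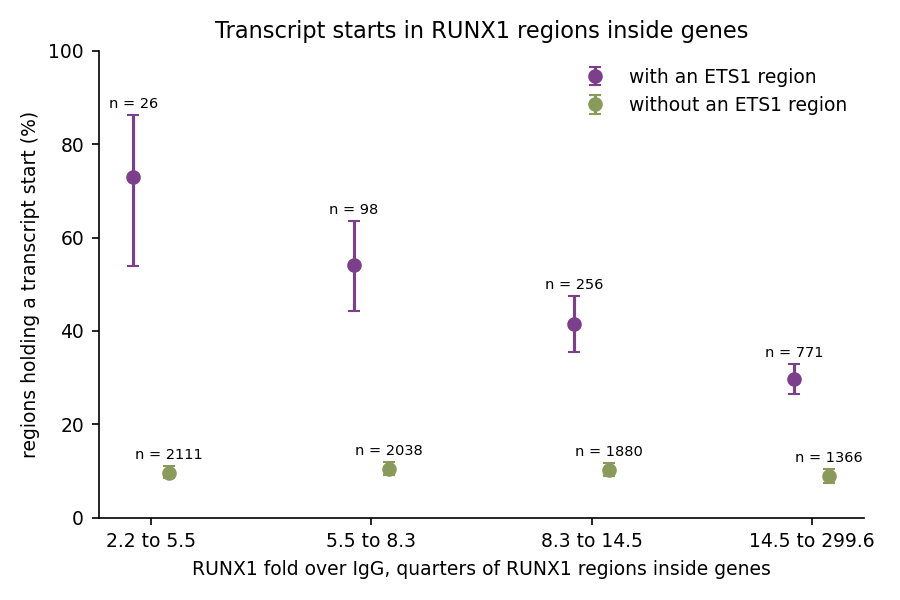
Percentage of intragenic RUNX1 regions that hold a transcript start (y axis, with 95% Wilson intervals) in 4 equal groups by RUNX1 fold over IgG (x axis), with and without an ETS1 region. With ETS1 the share falls from 73.1% to 29.7%, while without ETS1 it stays between 8.86% and 10.5%.

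Among members, those with a start were weaker in RUNX1 and slightly stronger in ETS1. Their median RUNX1 fold was 15.2 and 14.4, against 23.6 and 23.2 for the 953 members without a start. Their median ETS1 fold was 5.98 and 5.98, against 5.71 and 5.68. The log2 difference, with minus without, was 0.07 and 0.07 for ETS1 and -0.63 and -0.69 for RUNX1, and the antibodies differed by 0.73 (exact permutation p = 0.333). The small ETS1 difference changed sign in library 1 with only peaks at −log10 q of 20 or more (-0.07), in both libraries with a reciprocal overlap of 50% (-0.10 and -0.06), and in library 1 with summits within 100 bp (-0.00693). The RUNX1 difference kept its direction in these settings.

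At the starts, ETS1 and RUNX1 summits had similar median positions. The 319 members were chosen for holding a start in their ETS1 region, and the start used is the one nearest the ETS1 summit, so ETS1 summits had to lie near it and the distances are a description. The median position of the summit relative to the start, negative upstream, was -20 and -24 bp for ETS1 and -30 and -33 bp for RUNX1. Summits lay within 250 bp of the start in 76.8% and 77.1% of the 319 members for ETS1 and in 70.8% and 71.8% for RUNX1. Upstream of it lay 53.9% and 54.5% of ETS1 and 54.5% and 54.2% of RUNX1 summits, so neither factor was mainly on one side. From the ETS1 summit to the nearest RUNX1 summit the median was 64 and 56 bp, against 69 and 75 bp in members without a start. Single members differed, as at a RARA start (ETS1 -154 and -172 bp, strongest RUNX1 summit of the region 4546 and 4544 bp).

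**Figure D4:**
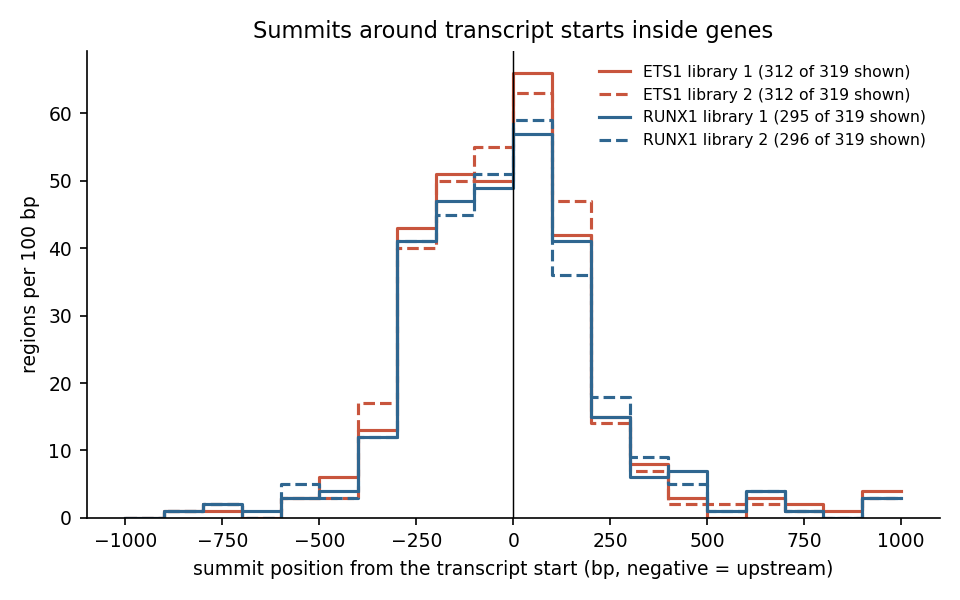
Number of members per 100 bp (y axis) by the position of the summit relative to the nearest transcript start in bp (x axis, negative upstream), for the 4 libraries (lines). All 4 lines peak around the start and fall off within about 250 bp.

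Examples among the strongest ETS1 members with a start, named after their values were seen, show both tight and loose placement. At CSK, the kinase that restrains LCK and other SRC-family kinases, all 4 summits lay between -732 and -727 bp, with a mean fold of 18.3 ± 0.814 for ETS1 and 103.1 ± 0.854 for RUNX1. At PRMT1, an arginine methyltransferase gene, the summits were spread from -308 to -64 bp (folds 17.9 ± 4.31 and 23.7 ± 0.884). At ZSCAN5A, a zinc-finger gene, they lay downstream, between 43 and 61 bp (17.7 ± 0.0955 and 31.1 ± 2.36). The region in PMVK, the member with the highest ratio, also held a start, with summits at -251 to -252 bp.

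Members leaned towards the 5′ part of their gene. The strand was known for 1062 members. Of these, 34.5% (interval 31.7 to 37.4) lay in the first of 4 equal stretches of the gene, counted from the 5′ end, and 17.7% in the last. Intragenic RUNX1 regions without ETS1 had 28.7% (interval 27.6 to 29.9) in the first. By this measure the lean was seen in members with a start (47.1%, interval 41.6 to 52.7). Members without a start (29.3%, interval 26.2 to 32.7) were near the RUNX1 regions without ETS1. Within 10 kb of the 5′ end lay 42.0% of members and 24.98% (interval 23.9 to 26.1) of RUNX1 regions without ETS1. By this distance, members without a start were also more often near the 5′ end (35.5%, interval 32.2 to 39.0). The part of gene length in this was not tested.

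The ETS core CCGGAAG was more frequent at starts in members than at internal starts elsewhere. It was searched on both strands, with GGAAG and TGTGGT, in windows of 300 bases (250 before to 50 after the start). Every match to the longer ETS core is also a match to the shorter. The longer core was in 79 of 443 windows in members (17.8%, interval 14.5 to 21.7), in 10.5% (interval 8.82 to 12.4) of other internal starts in a RUNX1 region and in 3.37% of those in none. Over all promoter windows of this length the share was 10.2%. The 443 windows exceed the 413 internal starts counted in members, so some may belong to starts within 1000 bp of a gene end. Their part in the 17.8% was not tested. Windows of starts close together overlap and are not independent. With 1 window per region, the shares were 17.2% (55 of 319, interval 13.5 to 21.8) in members and 11.5% (84 of 733, interval 9.35 to 13.97) in RUNX1 regions without ETS1, so the intervals then overlapped.

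The shorter ETS core was also more frequent in members, from a higher background. GGAAG was in 81.7% (interval 77.8 to 85.0) of windows in members and 75.1% (interval 72.5 to 77.6) of other internal starts in a RUNX1 region, with 71.9% over all windows. With 1 window per region the shares were 80.9% (interval 76.20 to 84.8) and 73.1% (interval 69.8 to 76.21), so these intervals met at their edges. The RUNX core TGTGGT was in 11.5% and 13.1%, with 13.1% over all windows. GC content was close in members and other internal starts in a RUNX1 region (medians of 66.7% and 66.3%). Their median number of CpG per window was 27 and 24.5. Internal starts in no RUNX1 region were poorer in both, with medians of 50.3% and 5, and all windows had 58.7% and 14. CCGGAAG itself holds a CpG, and the part of base composition in its shares was not tested. Gene-end starts in ETS1-RUNX1 regions had CCGGAAG in 25.8% of windows. A match describes the letters only, and the windows do not cover members without a start, whose sequence was not used here.

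Several genes held many members. SEPTIN9, a septin of the cytoskeleton, held 11, which lay on 9 of the 38 RUNX1 regions inside the gene. GSE1 held 10, on 5 of its 46 RUNX1 regions. In SEPTIN9 the members' ETS1 folds ran from 3.52 to 11.98 and their RUNX1 folds from 16.6 to 73.0. In GSE1 they ran from 4.49 to 12.8 and from 20.9 to 105.2. Both genes are long, 219098 and 506689 bp. Their members were neither the strongest nor the weakest in ETS1. Most of the RUNX1 regions inside these genes carried no ETS1 region, which is common, since 13.4% of all intragenic RUNX1 regions overlapped one.

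CCND3, which encodes a cyclin of the G1 phase, held 6 members in 115103 bp, which lay on 5 RUNX1 regions. Its strongest ETS1 member, at chr6:42010086-42010807, had 20.3 and 22.5 for ETS1 and 81.3 and 78.9 for RUNX1, and holds the start of LOC105375059 shown above. The ETS1 summits were at -222 and -348 bp from that start, and the RUNX1 summits at -222 and -221 bp. Another, at chr6:42045696-42046317, had 16.8 and 18.4 for ETS1 and 60.2 and 64.2 for RUNX1. The remaining 4 members had ETS1 folds of 5.87 to 9.05, so both strong members stood above them in each library.

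NOTCH1, the receptor gene most often mutated in T-ALL, held 5 members, on 3 of the 7 RUNX1 regions inside the gene. The strongest (chr9:136504334-136506658) had 14.2 and 12.7 for ETS1 and 78.0 and 75.9 for RUNX1, and the other 4 had mean ETS1 folds of 4.84 to 6.64. A pair of shorter genes also held several. The dynein-adaptor gene HOOK2 held 6 members in 29348 bp (ETS1 4.28 to 11.8, RUNX1 9.65 to 13.3). LTBP3, a binding protein of latent TGF-beta, held 5 in 19801 bp (3.89 to 9.25 and 12.3 to 69.6). PLEC, the plectin gene, held 6 (3.89 to 10.8 and 28.2 to 121.8), RAP1GAP2, a regulator of the GTPase Rap1, held 5 (4.16 to 11.2 and 30.4 to 133.6), TBCD, a tubulin chaperone gene, held 5 (4.22 to 6.97 and 24.5 to 52.7) and BAHCC1 held 4 (5.14 to 9.60 and 11.6 to 171.9).

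The genes of both factors held members themselves. RUNX1, which is transcribed from a distal and a proximal promoter, held 4. The member at chr21:35026779-35027410 had the highest ETS1 fold, 12.2 and 10.8, with 55.1 and 55.8 for RUNX1. The member at chr21:34887938-34889272 holds the internal start whose window is shown above. There ETS1 had 10.7 and 10.998, with both summits at -181 bp, while the RUNX1 summits of 72.1 and 72.7 lay downstream at 490 and 488 bp. The factors thus had their summits on opposite sides of this start, unlike at LCK, where ETS1 lay at -138 and -135 bp and RUNX1 at -133 and -133 bp.

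The other RUNX1 members had ETS1 folds of 8.98 and 9.23 (chr21:34886603-34887123) and of 5.12 and 5.05 (chr21:34889787-34891227). The second of these lies on the same RUNX1 region as the member with the internal start. Its RUNX1 folds of 72.1 and 72.7 are therefore the same measurement, taken at the summit downstream of that start. Both RUNX1 values were above both ETS1 values in each of the 4 members, while over all members ETS1 had the higher mean fold at only 2.67%. The ETS1 gene held a single, weaker member (chr11:128522215-128522781), with 4.91 and 4.94 for ETS1 and 21.9 and 20.2 for RUNX1. SH2D1A, the adaptor gene named in the study's title, held no member and no RUNX1 region with its midpoint inside the gene and away from its ends.

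Gene lists of pathways and cell types were counted by how many genes over 2000 bp held a member, beside the number given by the share in the same length classes. The lists were chosen with earlier results in view, and the median number of members per gene was 0 in every list and 0 over all genes. The counts describe the lists and test nothing.

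**Figure D5:**
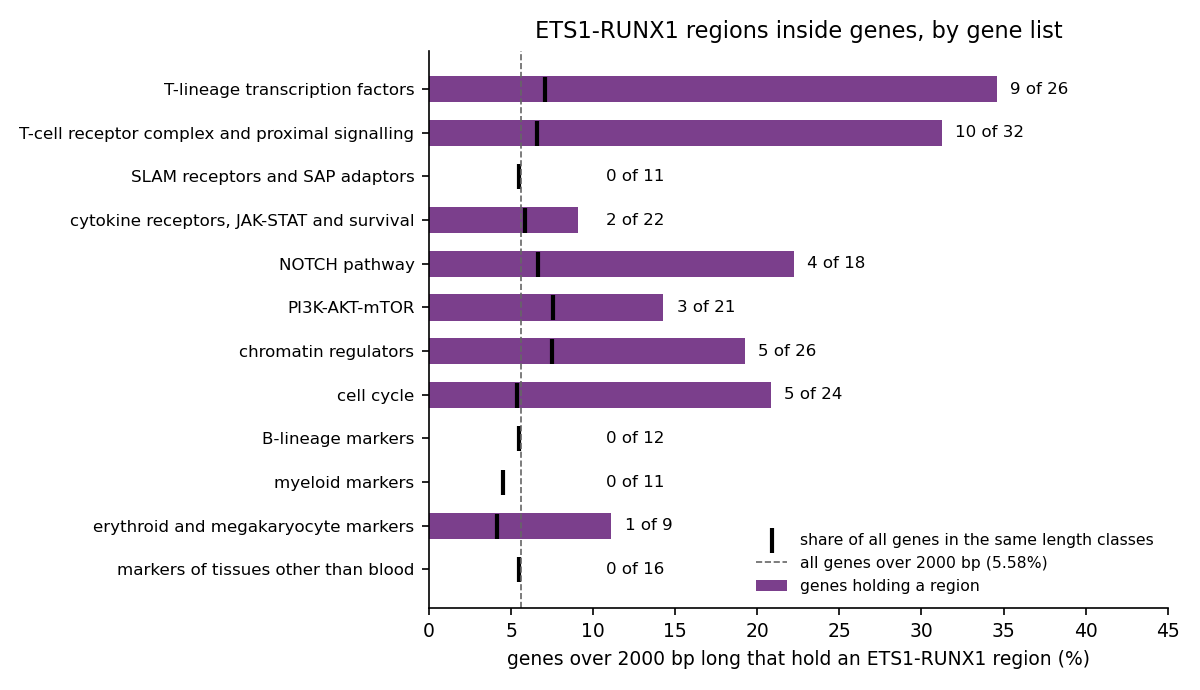
Percentage of genes over 2000 bp in each list that hold a member (bars, x axis), with the share of all genes in the same length classes (black ticks) and of all genes (dashed line, 5.58%). T-lineage factors and T-cell receptor genes have the longest bars, and the lists of B-lineage, myeloid and non-blood markers and of SLAM receptors are at 0.

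Transcription factors of the T lineage held a member in 9 of 26 genes, against 1.83 given by length. A RUNX1 region lay inside 20 of the 26, against 23.3% of all genes over 2000 bp, a share not matched for length. ERG led the list by ETS1 fold, followed by RUNX1, both described above. SATB1, an organiser of chromatin in thymocytes, had 5.69 and 7.03 for ETS1 and 40.9 and 41.0 for RUNX1. TCF3, which encodes the E proteins E12 and E47, had 5.87 and 5.75 for ETS1 and 30.4 and 29.5 for RUNX1. The other 5 genes with a member, named after their values were seen, were TCF7, ETS1, TOX, TOX2 and LYL1. Their mean ETS1 folds ran from 3.33 in LYL1 to 5.43 in TCF7, below the median of all members. With only peaks at −log10 q of 20 or more, or with a reciprocal overlap of 50%, 2 genes of the list held a member.

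T-cell receptor genes held a member in 10 of 32 genes, against 2.11 given by length. Inside 22 of the 32 lay a RUNX1 region, against 23.3% of all genes over 2000 bp. VAV1 came first. UBASH3A, which encodes a phosphatase-like brake on receptor signalling, had 13.5 and 10.3 for ETS1 and 69.9 and 73.0 for RUNX1 (chr21:42424893-42425947). DGKA, a diacylglycerol kinase gene, had 11.5 and 10.5 for ETS1 and 35.5 and 38.1 for RUNX1. LCK, the kinase that phosphorylates the CD3 and zeta chains, had 8.76 and 9.44 for ETS1 and 23.4 and 24.8 for RUNX1 (chr1:32273155-32274335), over the internal start shown above. At these 4 genes both RUNX1 values exceeded both ETS1 values, which sets them apart little, since ETS1 had the higher mean fold at 2.67% of all members. Members were also in PRKCQ, PLCG1, LCP2, CD247, UBASH3B and ZAP70, with mean ETS1 folds of 5.02 to 8.48. Under a reciprocal overlap of 50%, 4 genes of the list held a member. The SLAM receptors and SAP adaptors held none in 11 genes, with 0.604 given by length, and a RUNX1 region lay inside 1 of them.

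NOTCH pathway genes held a member in 4 of 18, against 1.19 given by length. After NOTCH1 came DTX1, a ubiquitin ligase gene and NOTCH target, with 7.30 and 6.88 for ETS1 and 95.9 and 96.6 for RUNX1, then the coactivator gene MAML3 (7.70 and 4.96; 30.3 and 29.5) and the receptor gene NOTCH3 (6.07 and 5.66; 39.4 and 42.4). At all 4 genes both RUNX1 folds were above both ETS1 folds, again the common order (ETS1 had the higher mean fold at 2.67% of all members). The count was 2 with only peaks at −log10 q of 20 or more, with a reciprocal overlap of 50% and at 5000 bp from gene ends.

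Cell-cycle genes held a member in 5 of 24, against 1.29 given by length. CCND3 led. E2F2, an activator of S-phase genes, had 10.1 and 11.8 for ETS1 and 58.1 and 62.1 for RUNX1. CDK6, the kinase that cyclin D3 activates, had 5.61 and 9.43 for ETS1 and 12.5 and 12.9 for RUNX1. CDC25B, a phosphatase that activates CDKs, had 6.78 and 6.32 for ETS1 and 18.4 and 17.3 for RUNX1. The members in CDK6 and CDC25B each held a start of a coding gene. Of these 4 genes, the ETS1 libraries differed most at CDK6. The count fell to 1 with a reciprocal overlap of 50% and to 3 with the 5611 strongest peaks of each library.

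Chromatin regulators held a member in 5 of 26, against 1.95 given by length. The histone deacetylase gene HDAC4 led by ETS1 fold, with 10.4 and 5.05 for ETS1, a wide gap between the libraries, and 31.7 and 30.5 for RUNX1. SETD2, a histone methyltransferase gene (7.75 and 6.77 for ETS1, 19.2 and 21.3 for RUNX1), and HDAC7 (7.07 and 5.40 for ETS1, 27.8 and 32.4 for RUNX1) came next. KMT2A, which encodes a histone H3 lysine methyltransferase, was weaker, with 4.18 and 4.40 for ETS1 and 10.9 and 9.78 for RUNX1. The count fell to 1 with only peaks at −log10 q of 20 or more, to 1 with a reciprocal overlap of 50% and to 3 at 5000 bp from gene ends.

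In the PI3K-AKT-mTOR list 3 of 21 genes held a member, against 1.59 given by length. They were RPTOR, the scaffold of mTOR complex 1 (12.2 and 8.67 for ETS1, 19.5 and 23.6 for RUNX1), PIK3R5, a regulatory subunit gene (8.74 and 9.02, 63.0 and 62.5), and AKT2 (5.01 and 3.53, 6.57 and 7.47). In the list of cytokine receptors, JAK-STAT and survival genes 2 of 22 did, against 1.28. They were STAT3, a cytokine-activated transcription factor gene (12.9 and 12.5, 55.6 and 65.2), and BCL2L1, which encodes the survival protein BCL-XL (7.31 and 6.63, 46.7 and 46.0). With a reciprocal overlap of 50% the second list had 1. Both lists were the closest to what length gives among the pathway lists with a member.

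Marker genes of other cell types held hardly any member. B-lineage markers held 0 in 12 genes, myeloid markers 0 in 11 and markers of tissues other than blood 0 in 16, with 0.661, 0.494 and 0.879 given by length. A RUNX1 region lay inside 3 genes of each of these lists, near the share over all genes over 2000 bp (23.3%). Among erythroid and megakaryocyte markers 1 of 9 held a member, the erythropoietin receptor gene EPOR, with 5.31 and 6.08 for ETS1 and 12.8 and 13.1 for RUNX1, and none did at 5000 bp from gene ends. With counts given by length below 1, a count of 0 in these lists was not distinguishable from the background. Peaks do not measure expression, so the labelled cell type was not checked against expressed markers.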

How the data were processed

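Peak lists of 4 CUT&Tag libraries of 6T-CEM cells were used, 2 per antibody. Per the submitters' processing notes, bcl2fastq 2.17, Bowtie2 and MACS3 3.0.0a6 were run with hg38. Peaks were called per library against IgG, per the labels of the lists. Any peak threshold, treatment of duplicates or mapping filter is not given in the sources used here. For each peak, the authors' deposited lists give a fold over IgG (a ratio), −log10 p and −log10 q, and a score that was not used. Folds are the authors' own values and only describe or rank peaks.

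The lists hold no read totals, so depth is unknown in absolute terms. The pileup was solved from fold and −log10 p, with whole numbers found for 100% of peaks in each library (within 0.01 in −log10 p, or 5e-05 of its value), which was tested on simulated data. Genes, transcript starts and promoter sequences came from RefSeq (GRCh38.p14, 19821 protein-coding genes; strand known for 15812 through the promoter table). All 234 list entries matched a symbol; 1 planned list and 1 gene of another are not reported here. For shares, 95% Wilson intervals are given (counting error only). Antibodies were compared by the exact permutation test over 4 libraries (two-sided). Python 3.11.15, numpy 2.4.6, pandas 2.3.3 and scipy 1.17.1 were used.

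The members and lists were chosen with earlier results of these data known. Named genes were the 10 members with the highest mean fold of each factor, the 5 with the highest lower fold, the 5 with the highest ratio, the 10 genes with most members (ties by symbol, which put BAHCC1 first among 11 genes with 4), up to 4 genes per list by ETS1 fold, ETS1, RUNX1 and SH2D1A, and 2 regions on each side of the limit of 1000 bp. Others are said to be named after their values were seen. Transcript starts, motifs at 1 window per region and the settings that go with them were added after the data were examined. Libraries of an antibody share only a number with those of the other: their replicate differences in log2 fold did not move together over 1309 members (Spearman's rho 0.0519, Pearson's r 0.0599).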

Additional observations from a re-analysis of the deposited data

Results flagged for a closer look

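In 3 comparisons both ETS1 libraries moved one way and both RUNX1 libraries the other. Values are differences in median log2 fold, and each difference between antibodies had an exact permutation p of 0.333, the smallest that 2 against 2 libraries can give. Members against gene-end regions gave -0.01 and -0.02 for ETS1 and 0.69 and 0.74 for RUNX1, a difference of -0.73. These ETS1 values are near level. They changed sign in library 2 with only peaks at −log10 q of 20 or more, and in both libraries with a reciprocal overlap of 50%. Members with against without a transcript start gave 0.07 and 0.07 for ETS1 and -0.63 and -0.69 for RUNX1, a difference of 0.73. Members against ETS1-RUNX1 regions outside genes gave -0.05 and -0.05 for ETS1 and 0.02 and 0.03 for RUNX1, a difference of -0.0737. No cause was tested.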

How the results depend on the processing

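The number of members depended on the peaks and overlaps allowed. With only peaks at −log10 q of 20 or more there were 599 members in 534 genes, a summit distance of 53 bp and a transcript start in 28.8%. With a reciprocal overlap of 50% the values were 444, 418, 52 bp and 37.9%, and at 5000 bp from gene ends 802, 625, 60.5 bp and 22.04%. With the 5611 strongest peaks of each library the distance was 71.5 bp and the share 20.5%, and with the midpoint of the ETS1 summits the distance was 69 bp. Leaving out each library gave 1310 to 1621 members, 1039 to 1228 genes, 67 to 73 bp and 22.6% to 25.2%. The differences between antibodies for members against gene ends (-0.92 to -0.41), with against without a start, peak width and summits near a start kept their direction in every setting run. For the lists with a member, 13 of 32 counts moved by more than 1.5 times, all downwards, and 4 lists held none and could not fall. With the replicate number as a block, the differences of -0.73, 0.73, -1230 bp and 13.9 percentage points were unchanged by construction, and each exact p was 0.5, the smallest a block allows. Whether the numbers pair the samples is not given in the labels, and the block changed no call. Summit pileups near 50 for ETS1 limit the precision of a fold at a weak member.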
